A study of Mus musculus with 17 samples.

Results

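Calca and 9 other genes of enteroendocrine hormones and neuropeptides were followed in the colon of mice that received pregnenolone 16α-carbonitrile (PCN), a ligand of the rodent pregnane X receptor (PXR). The other genes were Calcb, Gcg, Pyy, Insl5, Cck, Sst, Chga, Tph1 and Tac1. They are 10 of the 37325 gene or transcript names on the array, and they are read by 17 of its 56605 probes. The set was selected on measured values, since Calca was among the genes with the largest difference under PCN in these same arrays. The values of Calca under PCN are therefore given as a description with no test. The question was whether Calcb, the endocrine hormones or the neuronal peptides shared that difference.

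Calca codes for calcitonin and, by alternative splicing, for α-CGRP (calcitonin gene-related peptide), and the neighbouring gene Calcb codes for β-CGRP. Calcitonin lowers blood calcium, whereas CGRP is a vasodilator peptide of sensory and enteric neurons. In the colon wall, enteroendocrine cells are scattered in the epithelium and release hormones towards the blood and nearby nerve endings. L cells make proglucagon (Gcg), peptide YY (Pyy) and INSL5, D cells make somatostatin (Sst), and enterochromaffin cells make serotonin through TPH1. Enteric neurons use CGRP, tachykinins and other peptides as transmitters.

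The mice were males on the C57BL/6J background. WT (wild-type) mice were bought at 6 weeks of age and acclimatized for 2 weeks. Pxr-/- mice lack the gene Nr1i2, which codes for PXR, and came from a colony kept in house, so that origin and genotype cannot be told apart. PCN was injected intraperitoneally at 100 mg/kg each day for 4 days in corn oil, and CONT mice received the oil alone. All were killed 6 h after the last dose, in the fed state per the labels, while the paper calls the mice semi-fasted at that time. By the labels, 4 arrays of total colon RNA were of the WT CONT group, 4 of WT PCN, 5 of Pxr-/- CONT and 4 of Pxr-/- PCN. The labels tie no array to a numbered mouse, and the p-values measure the spread between these arrays.

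Not all labels were borne out by the arrays. The arrays labelled WT PCN 4 and Pxr-/- PCN 2 were nearly the same, with an SD of 0.17 for the log2 differences between them over all probes. Those labelled WT PCN 3 and Pxr-/- CONT 2 were also nearly the same, with an SD of 0.20, while the other 134 pairs of arrays had SDs between 0.30 and 0.62. The log2 signal of Nr1i2 was 11.10 and 11.15 in the arrays labelled WT PCN 3 and 4, below the 11.85 to 12.44 of the other 6 WT arrays and inside the 10.39 to 11.93 of the Pxr-/- arrays. Whether the Nr1i2 probe lies in the deleted sequence is not given in the sources used here. Results are therefore given with all 17 arrays and with the 13 arrays left without these 4. Some arrays held RNA of neighbouring organs. The log2 signal of Cpa1, a pancreatic acinar enzyme, was 17.88 in WT CONT 4, 15.56 in the array labelled WT PCN 3, 15.48 in the array labelled Pxr-/- CONT 2 and 10.68 in WT PCN 1, against at most 6.77 elsewhere. Alb, the albumin gene of hepatocytes, was 12.68 in WT CONT 5, 9.21 in WT PCN 1 and 9.50 in WT PCN 2, against at most 6.96 elsewhere. WT PCN 1 and 2 also had the highest Calca signal (8.19 and 8.28). WT CONT 5, with the highest Alb, had 5.74, which was the highest Calca signal of the WT CONT arrays. The part of such RNA in the results was not tested.

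The array reads Calca through a pair of 60-base probes, for transcript variant 1 (RefSeq NM_007587, calcitonin) and variant 2 (RefSeq NM_001033954, α-CGRP), and Calcb through 1 probe (RefSeq NM_054084). Their first 30 bases are shown because the results turn on telling these transcripts apart. The capitals mark the longest run of letters that the stretches of Calca variant 1 and Calcb have in common, which is 4 bases long.
Calca, variant 1: ggcagtcatctggcttcctagtAGAGcttc
Calca, variant 2: tattgtgcatcgtgttgtatgtgactctgt
Calcb: ccgttgttacttgAGAGgaatgaaaccaag
The array files place them on mouse build mm9, the probe of variant 1 at chr7:121776832-121776891 and that of variant 2 at chr7:121775204-121775263 on the minus strand, and that of Calcb at chr7:121866534-121866593 on the plus strand. The probes of variant 1 and variant 2 are 1568 bases apart, and 89642 bases separate the probes of variant 1 and Calcb. When laid side by side, the probes of variant 1 and Calcb were identical at no more than 22 of 60 positions. The files give no exon for these positions.

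Calca variant 1 was higher in every PCN array than in every CONT array of the same genotype. Values are log2 of the spot's median signal after quantile normalization between arrays, and each gene is compared with itself only. In WT CONT the level was 5.50, 5.12, 5.64 and 5.74, and the probe stood well above the background on 1 of these 4 arrays. In WT PCN it was 8.19, 8.28, 6.71 and 7.58, where 6.71 and 7.58 belong to the arrays labelled WT PCN 3 and 4. The lowest value of the group was thus that of an array nearly the same as a Pxr-/- CONT array. In Pxr-/- CONT it was 5.78, 6.24, 5.98, 6.48 and 5.93, with the probe above the background on 4 of 5 arrays. In Pxr-/- PCN it was 6.92, 7.61, 7.36 and 6.74. The probe was above the background on every PCN array of both genotypes, and neither genotype showed an overlap between PCN and CONT.

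From lowest to highest, the group means of Calca variant 1 were those of WT CONT (5.50 ± 0.27, SD, n = 4), Pxr-/- CONT (6.08 ± 0.28, SD, n = 5), Pxr-/- PCN (7.16 ± 0.40, SD, n = 4) and WT PCN (7.69 ± 0.73, SD, n = 4). Pxr-/- PCN and WT PCN, neighbours in this order, overlapped. The PCN minus CONT difference was 2.19 (SE 0.31) in WT, which is 4.55-fold from a CONT group measured above the background on 1 array, and 1.08 (SE 0.29) in Pxr-/-, which is 2.11-fold. Among 38703 probes tested, these differences had rank 6 in WT and rank 72 in Pxr-/- from the top. Without the 4 near-identical arrays, the difference was 2.74 (SE 0.23) in WT, 6.68-fold, from 8.24 ± 0.06 (SD, n = 2) under PCN. In Pxr-/- it was then 0.99 (SE 0.20), 1.98-fold. The WT PCN arrays left, WT PCN 1 and 2, are those with raised Alb (9.21 and 9.50), and WT PCN 1 also had Cpa1 at 10.68. The part of such RNA in the 2.74 was not tested. The PCN difference in Pxr-/- minus that in WT was -1.11 (SE 0.42) with 17 arrays and -1.75 (SE 0.30) with 13. Non-overlap with PCN higher was seen for 1.36% of probes in WT and 1.38% in Pxr-/-. As this contrast chose Calca, nothing is read from that or from the ranks.

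The arrays had been washed in 2 baths, and Calca was higher under PCN within each. The difference of means was 2.21 and 2.51 in WT and 1.25 and 0.85 in Pxr-/-, for baths 1 and 2. WT PCN had 1 array in bath 2 (WT PCN 1) and 3 in bath 1, among them those labelled WT PCN 3 and 4. Between the near-identical arrays labelled WT PCN 3 and Pxr-/- CONT 2, Calca differed by 0.47, the largest difference of the 10 genes in that pair, whose median was 0.07.

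Calca was also compared between genotypes in CONT mice. These CONT arrays enter the PCN differences by which Calca was chosen, and the values are again a description with no test. Every Pxr-/- CONT array (5.78 and above) was above every WT CONT array (5.74 and below), by a narrow gap. Of all probes, 2.38% were higher in Pxr-/- CONT without overlap. The difference was 0.58 (SE 0.29). Within wash baths it was 0.92 and 0.29. Because the probe was above the background on only 1 WT CONT array, the level in that group is close to the background.

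The probe of Calca variant 2 (α-CGRP) showed no such difference. It was above the background on 4 arrays in all, 1 in each group, and its log2 signal lay between 5.01 and 6.10. The PCN minus CONT difference was 0.10 (SE 0.24) in WT and 0.14 (SE 0.23) in Pxr-/-. At this signal a difference in the α-CGRP transcript was not detectable, and the PCN difference of Calca described here is that of variant 1.

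**Figure D1:**
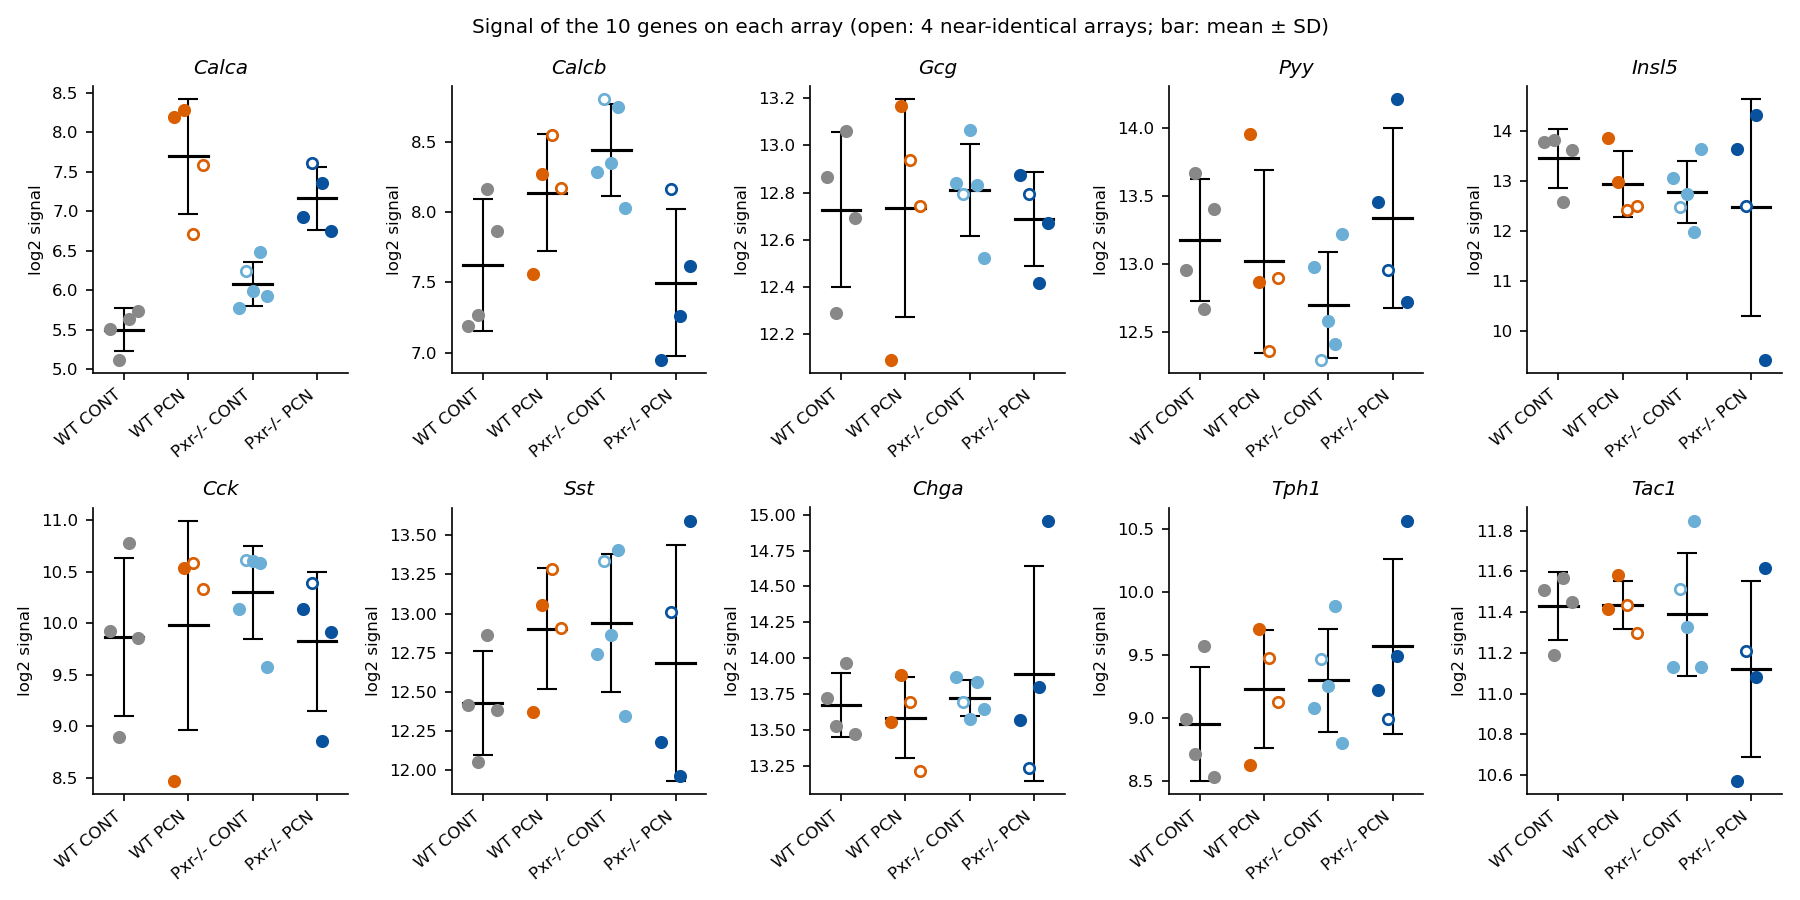
Log2 signal of the 10 genes on each array, by group (points: arrays, open points: the 4 near-identical arrays, bars: mean ± SD). Calca is the gene whose PCN arrays all lie above the CONT arrays of the same genotype, while each of the other 9 genes overlaps between PCN and CONT in both genotypes.

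The threshold for a call, over all 38703 probes tested, was an FDR up to 0.05 together with a fold change above 1.5. None of the 9 other genes was called in any of the 5 comparisons, against 0% of all probes for PCN in WT mice, 0.00517% for PCN in Pxr-/- mice, 0.00517% for PCN averaged over genotypes, 0% for genotype in CONT and 0% for the interaction of PCN and genotype. With so few calls anywhere, this says little of these genes. Without the 4 near-identical arrays, 19, 20, 75, 0 and 1 probes were called in these comparisons, and again none of the 9 genes. At an unadjusted limma p under 0.05 stood 4.66%, 7.35%, 5.91%, 12.7% and 5.38% of all probes in the same order, and of the 9 genes 0, 1, 0, 1 and 1, which was Calcb each time. For PCN in WT, 4 of the 9 genes were higher and 5 lower, with a median difference of -0.01 against 0.00 over all probes. For PCN in Pxr-/-, 3 were higher and 6 lower, with a median of -0.26 against 0.01 over all probes.

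Calcb, the neighbour of Calca, did not have its pattern. Its log2 signal in WT CONT was 7.19, 7.27, 8.17 and 7.86, and in WT PCN 7.56, 8.27, 8.55 and 8.17. The groups overlapped, and the PCN difference was 0.49 (SE 0.29, 95% interval -0.14 to 1.12, limma adjusted p = 0.956). Within wash baths it was 1.10 in bath 1 and -0.45 in bath 2, where WT PCN had 1 array. In Pxr-/- CONT the level was 8.29, 8.80, 8.35, 8.75 and 8.03, and in Pxr-/- PCN 6.95, 8.17, 7.26 and 7.62. Here 3 of the 4 PCN arrays lay below every CONT array, the exception being the array labelled Pxr-/- PCN 2. The difference was -0.96 (SE 0.28, 95% interval -1.54 to -0.37), opposite in sign to that of Calca, with a two-sided exact permutation p = 0.0159, and it did not pass the threshold over all probes (limma adjusted p = 0.434). Without the near-identical arrays the difference was -1.08 (limma adjusted p = 0.423).

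The level of Calcb in CONT mice also differed by genotype, by 0.83 (SE 0.28, 95% interval 0.24 to 1.42) towards Pxr-/-, with an exact permutation p = 0.0238 and a limma adjusted p = 0.276. The PCN difference in Pxr-/- minus that in WT was -1.44 (SE 0.40, 95% interval -2.30 to -0.59), with a limma adjusted p of 0.848. Neither passed the threshold. The comparisons share arrays, so that the higher level in Pxr-/- CONT enters each of these values. Of the 27 exact permutation tests made on the 9 genes, 2 had an unadjusted p under 0.05, those of Calcb named above, and the smallest p the group sizes allow is 0.0286 for 4 against 4 arrays and 0.00794 for 4 against 5.

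The L cell hormones were at high signal on every array. The log2 signal of Gcg, the precursor of GLP-1, GLP-2 and oxyntomodulin, lay between 12.09 and 13.17 on all 17 arrays, with group means of 12.73, 12.74, 12.81 and 12.69 for WT CONT, WT PCN, Pxr-/- CONT and Pxr-/- PCN. Its PCN difference was -0.02 (95% interval -0.47 to 0.43) in WT and -0.13 (-0.55 to 0.29) in Pxr-/-. Gcg thus had narrow intervals, which leave out a difference of the size that Calca showed.

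Pyy codes for peptide YY, which slows gut transit. Its log2 signal was 12.95, 13.67, 12.67 and 13.40 in WT CONT and 13.96, 12.87, 12.36 and 12.89 in WT PCN. In Pxr-/- it was 12.98, 12.29, 12.58, 12.41 and 13.22 under CONT and 13.46, 12.95, 14.22 and 12.72 under PCN. Groups overlapped in both genotypes. The PCN difference was -0.12 (95% interval -0.91 to 0.67) in WT and 0.66 (-0.08 to 1.40, limma adjusted p = 0.729) in Pxr-/-. In WT it was 0.24 without the near-identical arrays, so that its sign depended on them. The interval of Pyy in Pxr-/- includes the 1.08 measured for Calca there.

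Insl5, a relaxin family hormone of colonic L cells, had the widest range of the 10 genes because of Pxr-/- PCN 4, without which it spanned 11.98 to 14.33. Its log2 signal was 13.77, 13.83, 12.59 and 13.63 in WT CONT and 13.87, 12.99, 12.42 and 12.51 in WT PCN. In Pxr-/- it was 13.07, 12.49, 12.75, 11.98 and 13.65 under CONT and 13.64, 12.50, 14.33 and 9.43 under PCN. Both the highest and the lowest value were thus in Pxr-/- PCN. The PCN difference was -0.56 (95% interval -2.26 to 1.14) in WT and -0.33 (-1.92 to 1.26) in Pxr-/-, where it was 0.80 without Pxr-/- PCN 4. A difference of the size of that of Calca in Pxr-/- was not detectable for Insl5 with this spread.

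Cck, the cholecystokinin gene, had a log2 signal between 8.47 and 10.78. Its PCN difference was 0.07 (95% interval -0.99 to 1.13) in WT and -0.49 (-1.49 to 0.50) in Pxr-/-. In WT the value was -0.36 without the near-identical arrays. Sst, the gene of somatostatin, which restrains the release of other gut hormones, lay between 11.96 and 13.59. Its difference was 0.47 (-0.27 to 1.20) in WT and -0.26 (-0.94 to 0.43) in Pxr-/-. With all arrays, Sst had the highest upper limit of the 9 other genes in WT, and 1.20 is below the 2.19 measured for Calca. Without the near-identical arrays the highest was that of Insl5, whose 95% interval in WT was then -2.43 to 2.37. This limit is above 2.19, and below the 2.74 measured for Calca without those arrays.

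Chga codes for chromogranin A, a protein of hormone granules that most enteroendocrine cells share. It lay between 13.22 and 13.96 on 16 arrays and at 14.96 in Pxr-/- PCN 4. Its PCN difference was -0.03 (95% interval -0.60 to 0.54) in WT and 0.19 (-0.34 to 0.72) in Pxr-/-, and in Pxr-/- it was -0.18 without that array. Tph1, whose enzyme limits serotonin synthesis in enterochromaffin cells, lay between 8.53 and 9.89 on 16 arrays and at 10.56 in Pxr-/- PCN 4. Its difference was 0.26 in both genotypes (95% intervals -0.48 to 1.00 and -0.43 to 0.96), and -0.13 in Pxr-/- without the same array. Tac1, the gene of substance P and neurokinin A in enteric neurons and enterochromaffin cells, lay between 10.57 and 11.85. Its difference was -0.01 (95% interval -0.43 to 0.40) in WT and -0.28 (-0.67 to 0.11, limma adjusted p = 0.805) in Pxr-/-.

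**Figure D2:**
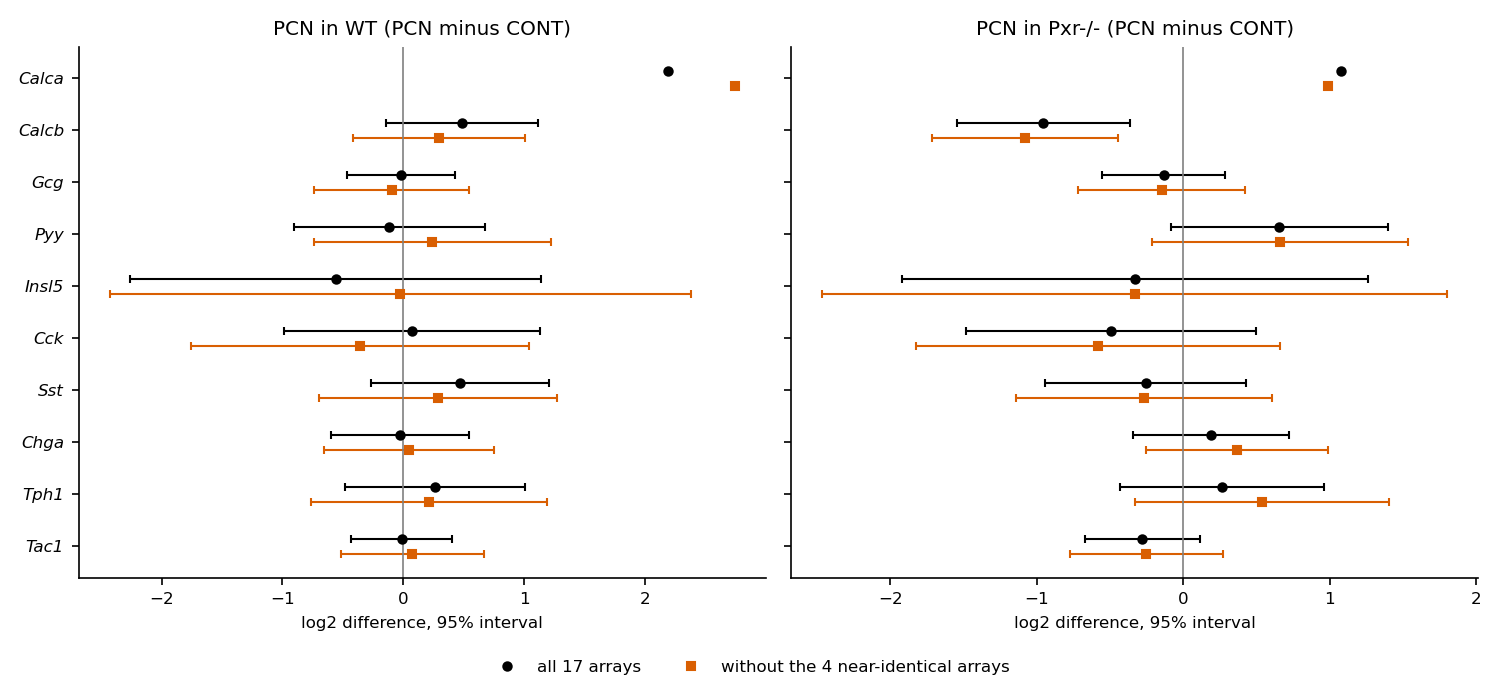
PCN minus CONT difference of the 10 genes on the log2 scale in WT (left) and Pxr-/- (right), with all 17 arrays (circles) and without the 4 near-identical arrays (squares); bars are 95% intervals, and Calca has none because it was chosen for this contrast. Calca lies at 2.19 and 2.74 in WT and at 1.08 and 0.99 in Pxr-/-, and the interval of Calcb in Pxr-/- lies below 0.

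Between genotypes in CONT mice, the differences of the 8 genes other than Calca and Calcb lay between -0.65 (Insl5) and 0.52 (Sst), with all 95% intervals including 0. The next largest were -0.49 for Pyy and 0.46 for Cck. Gcg, Chga and Tac1 had 0.10, 0.03 and -0.03.

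The endocrine genes varied between arrays along another axis, that of Hox genes of the distal colon. The 4 such genes on the array (Hoxb13, Hoxd13, Hoxd12 and Hoxa13), transcription factors that mark the posterior gut, served as a measure of position, and their mean log2 signal ranged from 6.54 in Pxr-/- PCN 4 to 11.36 in Pxr-/- PCN 3. Hoxb13 alone was 7.53 in Pxr-/- PCN 4, against 12.88 to 16.09 on the other arrays. The mean was 8.79 to 10.94 in WT CONT, 8.87 to 11.32 in WT PCN, 8.38 to 10.45 in Pxr-/- CONT and 6.54 to 11.36 in Pxr-/- PCN, so that each group spread widely. None of the 4 genes was called under PCN, with a median difference of -0.48 in WT and 0.04 in Pxr-/-. In WT all 4 were lower with 17 arrays, but 2 were higher and 2 lower, with a median of 0.09, without the near-identical arrays.

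Over the 17 arrays, Insl5 and Pyy were higher where the Hox genes were higher. Pearson's r was 0.94 (Spearman's rho 0.93) for Insl5 and 0.80 (0.91) for Pyy, and without Pxr-/- PCN 4 it was 0.93 for both. Sst was lower there, with r = -0.91 (rho -0.93), and so was Tph1 with r = -0.83 (rho -0.72). Cck had r = -0.68 (rho -0.76), which was -0.92 without Pxr-/- PCN 4. Gcg had r = -0.55 (rho -0.51), Tac1 -0.56 (rho -0.73) and Calcb -0.49 (rho -0.63). Chga had r = -0.62 (rho -0.47), but -0.18 without Pxr-/- PCN 4, so that its relation rested on this array. Calca had r = -0.05 (rho -0.09). The points share their arrays, 4 of which are near-identical, and how much of each colon was taken is not stated in the sources used here. With 13 arrays, r was 0.95 for Insl5, 0.79 for Pyy, -0.93 for Sst and -0.02 for Calca. Leaving out the 2 arrays farthest from the median of the Hox genes gave 0.91, 0.92, -0.90 and -0.14. Against the mean of 5 Hox genes of the proximal colon (Hoxb6, Hoxb8, Hoxb9, Hoxd3 and Hoxa7), r was 0.88 (rho 0.89) for Sst, -0.83 (rho -0.78) for Insl5 and 0.33 (rho 0.38) for Calca, and for Calca 0.27 with 13 arrays and 0.19 without the 2 farthest. Of these 5 genes, 4 were higher under PCN in each genotype, with medians of 0.62 in WT and 0.24 in Pxr-/-, and none was called.

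**Figure D3:**
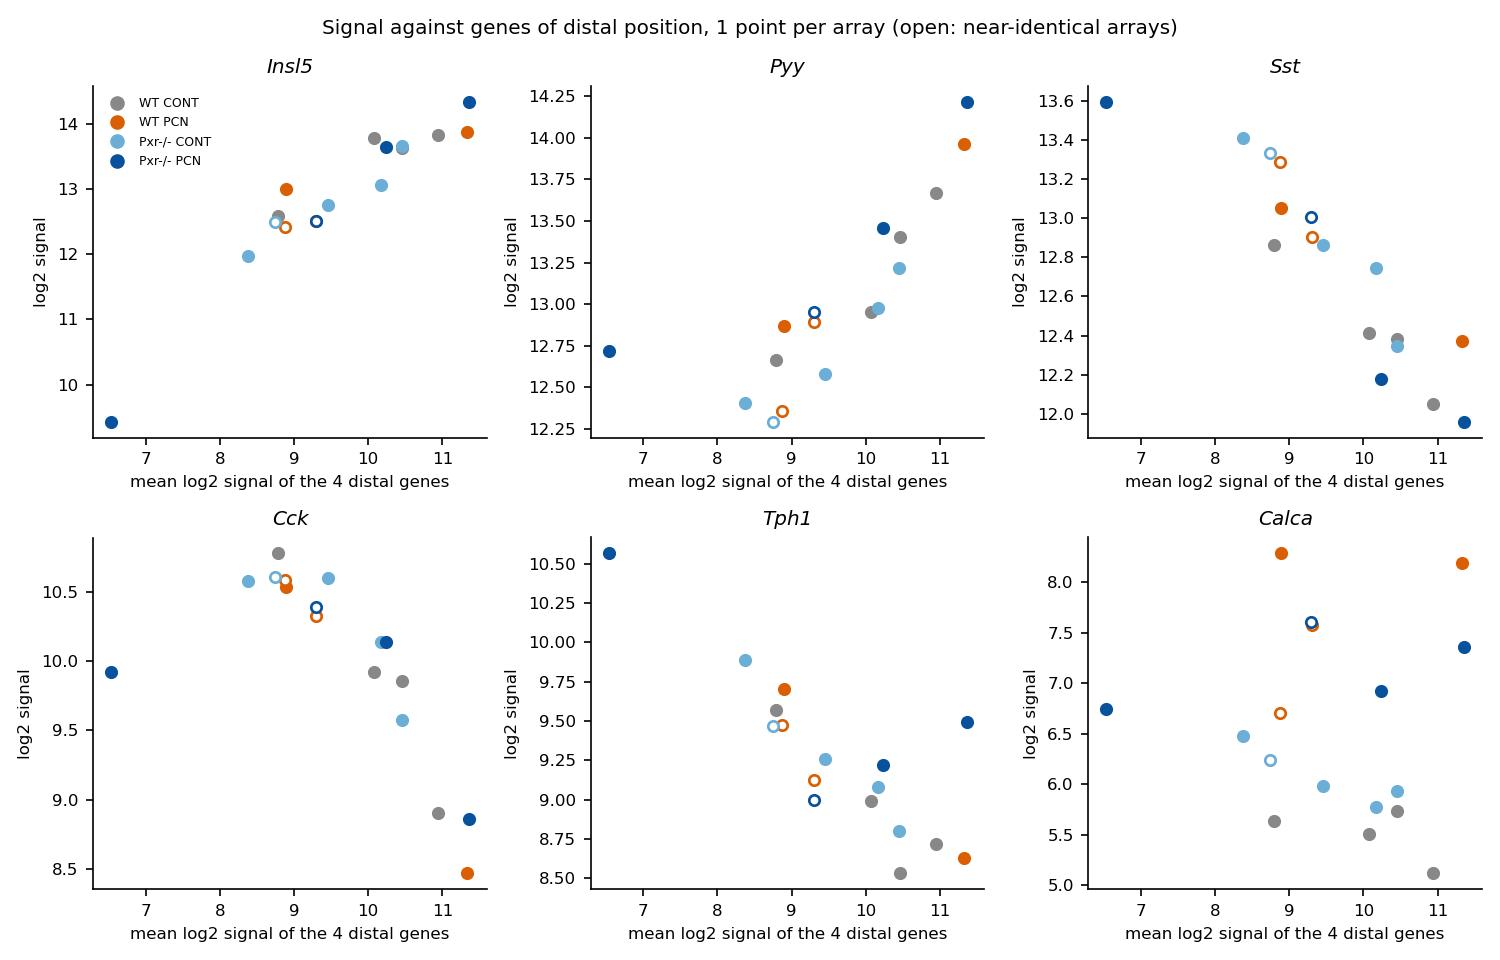
Log2 signal of the genes on each array against the mean log2 signal of 4 distal Hox genes (1 point per array, open points: near-identical arrays). Insl5 and Pyy lie higher, and Sst and Cck lower, on arrays with more distal Hox signal, and Calca shows no such slope.

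Among the 10 genes, Gcg and Cck varied together over the arrays (r = 0.92), as did Chga and Tph1 (0.79) and Calcb and Sst (0.74). Pyy ran opposite to Cck (r = -0.89) and Insl5 opposite to Sst (-0.86). Over the 17 arrays, Calca had an r between -0.09 and 0.19 with each of the 9 others, and its r with Calcb was 0.03. Without the 2 arrays farthest from the median, its r lay between -0.22 (Pyy) and 0.46 (Cck). These are correlations over the same arrays, which also differ in the Hox genes described above. Whether that reflects the position of each piece of colon or its cell content was not tested.

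Of 27 other enteroendocrine genes (granins, prohormone convertases, transcription factors and further hormones), 25 were tested. For PCN in WT 12 were higher and 13 lower, with a median of -0.04, and for PCN in Pxr-/- again 12 were higher and 13 lower, with a median of -0.01. None was called. In Pxr-/- 3 of 25 had an unadjusted limma p under 0.05, against 7.35% of all probes, the lowest adjusted p being 0.476. The granin gene Scg2 had a difference of 0.03 in WT and -0.65 (SE 0.20) in Pxr-/-. Cpe, which trims prohormones, had -0.06 and -0.53. At the other end, the secretin gene Sct had 0.63 and 0.29. The neurotensin gene Nts had 1.93 and 0.61 (limma adjusted p of 0.956 and 0.967), with levels from 5.50 to 13.24 and the highest in Pxr-/- PCN 4.

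The calcitonin family and the parts of its receptors showed no common difference. Of 8 genes tested (of 9), 5 were higher and 3 lower for PCN in WT (median 0.08), and 4 and 4 in Pxr-/- (median 0.01), with none called. Calcrl, the receptor that binds CGRP together with RAMP1, had a difference of -0.10 (SE 0.10) in WT and -0.03 (SE 0.10) in Pxr-/-. Its partner Ramp1 had -0.06 and -0.27, and the adrenomedullin gene Adm had -0.03 and -0.43. Adm2 had 0.19 and 0.39. Iapp, the amylin gene, had 0.21 and 0.90, a value set by Pxr-/- PCN 4, where it was 9.03 against at most 6.55 elsewhere. Calcr, the calcitonin receptor, was too dim to be tested.

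Of the receptors for the peptides of the 10 genes, 15 of 21 were tested and none was called. For PCN in WT 7 were higher and 8 lower (median -0.02), and in Pxr-/- 6 and 9 (median -0.12). Tacr1, the receptor of substance P, had the largest difference averaged over genotypes, with 0.75 in WT and 0.88 in Pxr-/-, an average of 0.81 (SE 0.20) and a limma adjusted p = 0.294. The somatostatin receptor gene Sstr3 had 0.04 and 0.55, whereas Sstr1 had -0.65 and -0.17, and Glp2r, the GLP-2 receptor, had -0.23 and -0.30. Of 6 genes tested (of 8) that make or clear tachykinins, serotonin or dopamine, 1 was higher and 5 lower in WT and 6 were higher in Pxr-/-, with medians of -0.19 and 0.10 and none called. Among them Maoa, which degrades serotonin, had -0.21 and 0.06, and Maob -0.27 and 0.14. Mme, which cleaves tachykinins, had -0.04 and 0.06, and Gch1 0.10 and 0.01.

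**Figure D4:**
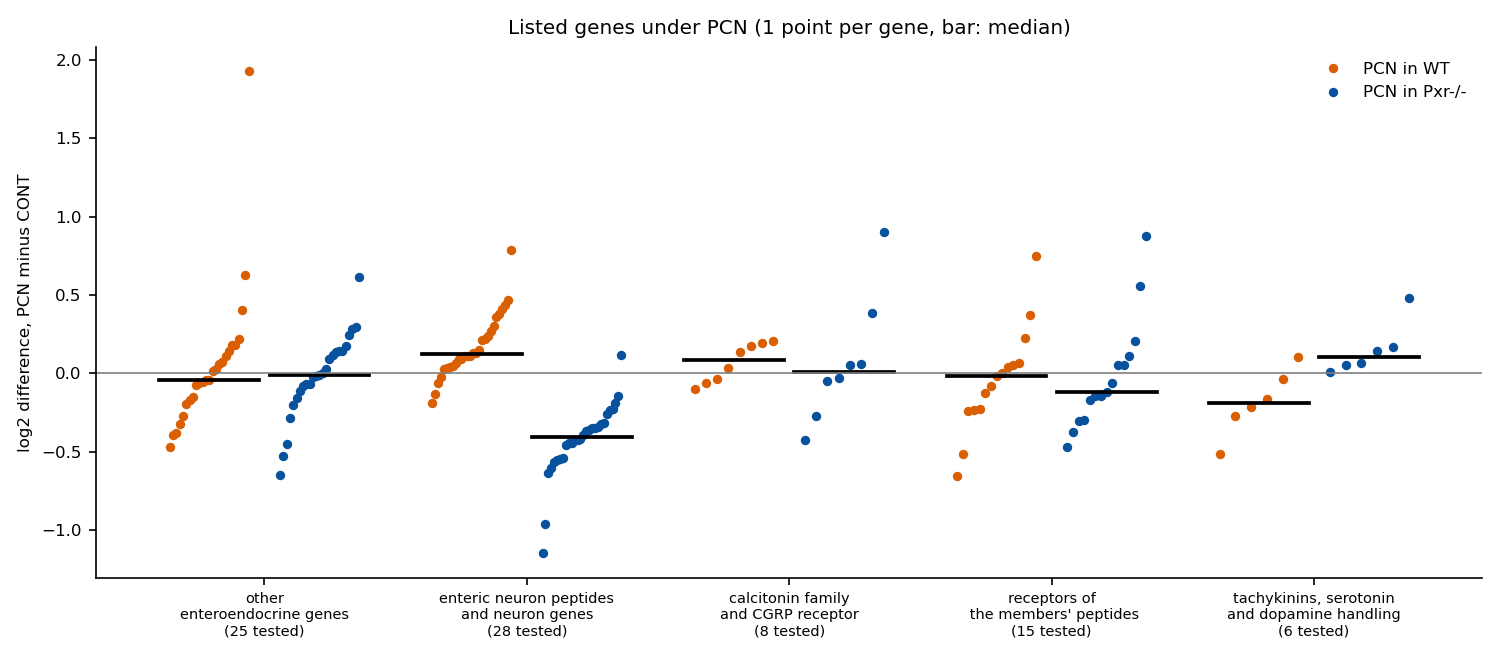
PCN minus CONT differences on the log2 scale for the genes of 5 lists in WT and in Pxr-/- (1 point per gene, bars: medians). The medians lie between -0.40 and 0.12, the neuron genes in Pxr-/- having the lowest.

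Genes of enteric neurons were compared with Calcb and Tac1. For PCN in WT 24 of 28 were higher (median 0.12), and for PCN in Pxr-/- 27 of 28 were lower (median -0.40), against medians of 0.00 and 0.01 over all probes. None was called. In Pxr-/- 16 of the 28 had an unadjusted limma p under 0.05, against 7.35% of all probes, with a lowest adjusted p of 0.352. The 28 genes were read on the same arrays, so they are not independent measures. The gene of gastrin-releasing peptide, Grp, had a difference of 0.44 in WT and -1.15 (SE 0.35) in Pxr-/-, and Nmu, the neuromedin U gene, 0.38 and -0.96 (SE 0.31). Calb2 had -0.19 and -0.55, and Vip 0.05 and -0.36. The highest averages were those of Cartpt, with 0.79 and -0.34, and of Th, with 0.21 and 0.12. For the interaction all 28 had a negative value (median -0.52), with a lowest adjusted p of 0.848. An unadjusted limma p under 0.05 was reached by 11 of them, against 5.38% of all probes. In CONT, 24 of 28 were higher in Pxr-/- than in WT (median 0.19).

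Smooth muscle genes went the same way as the neuron genes. All 7 were lower under PCN in Pxr-/- (median -0.46, none called). Of these, 4 had an unadjusted limma p under 0.05, against 7.35% of all probes. In WT 6 of the 7 genes were higher (median 0.13). Their mean log2 signal was 14.35 to 15.01 in Pxr-/- CONT and 14.00 to 14.56 in Pxr-/- PCN. The mean of the 28 neuron genes was 8.67 to 9.32 in Pxr-/- CONT and 8.30 to 8.83 in Pxr-/- PCN. In bulk tissue, fewer cells of a type and less RNA per cell cannot be told apart, and the part of muscle content in these values was not tested.

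Calcb varied with the neuron genes over the arrays, with r = 0.83 (rho 0.81) over 17 arrays, 0.86 over 13 and 0.74 without the 2 farthest. This was not particular to the neuron genes. With the mean of the other enteroendocrine genes, Calcb had r = 0.52 (rho 0.71), 0.56 and 0.89 in the same order. The neuron mean itself had r = -0.62 (rho -0.75) with the distal Hox genes over 17 arrays. Tac1 had r = 0.82 and Sst 0.80 with the neuron genes, and Pyy -0.79. Calca had r = 0.02.

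**Figure D5:**
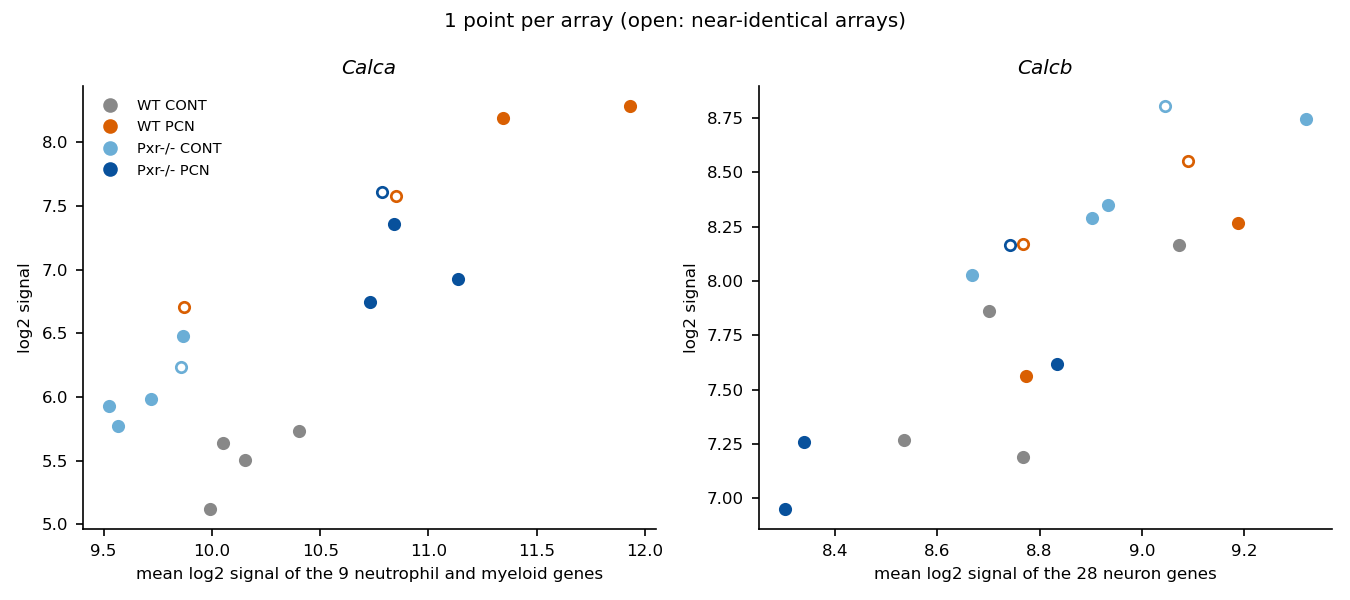
Log2 signal of Calca and Calcb on each array against the mean log2 signal of listed genes (1 point per array, open points: near-identical arrays). Calcb lies higher where the neuron genes are higher, while the Calca points fall into a lower CONT group and a higher PCN group.

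The genes with a pattern most like Calca were sought among 25019 genes, 1 probe each, by Pearson's r over the 17 arrays. The 10 closest, with r between 0.84 and 0.86, were a lincRNA of chromosome 3, Il1b, Il33, Ctps, Retnlg, Ccl2, Ccl7, Cstdc4, Ifitm7 and Stfa2l1. None of them is a hormone or neuropeptide gene. Il1b and Il33 code for cytokines, Ccl2 and Ccl7 for chemokines that attract monocytes, Retnlg for a protein of granulocytes, and Cstdc4 and Stfa2l1 for cystatins of the stefin A type. As they were chosen by likeness to Calca, their PCN differences are a description. Il33 had 1.34 in WT and 1.63 in Pxr-/-, Ccl2 1.38 and 1.93, Ccl7 1.05 and 1.42, Retnlg 1.91 and 1.52, and Il1b 1.07 and 0.82. Cstdc4 had 1.47 and 1.88, Stfa2l1 1.41 and 1.68, the lincRNA 1.02 and 0.72, Ctps 0.79 and 0.65, and Ifitm7 0.48 and 0.43.

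These genes were chosen by r over all 17 arrays, PCN and CONT together, and nothing is read from a lower r within one treatment. Among the 9 CONT arrays alone, r with Calca lay between -0.34 (Il1b) and 0.48 (Ctps), and among the 8 PCN arrays between 0.52 (Ifitm7) and 0.89 (Il1b). Il1b was 9.23, 10.02, 7.88 and 8.55 in WT PCN, where the arrays labelled WT PCN 3 and 4 were the lowest as for Calca. It ranged from 8.06 to 8.64 in Pxr-/- PCN and reached at most 7.93 in CONT arrays. Without the 4 near-identical arrays the closest gene was Atp2b1, a plasma membrane calcium pump, with r = 0.95 over 13 arrays, which had rank 263 with 17 arrays. Mmp19 (0.92), Sphk1 (0.92), Avpi1 (0.90) and Tnfaip6 (0.89) came next, so that the names depend on these arrays.

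Most of the 9 neutrophil and myeloid genes listed were higher under PCN, as Calca was. The list includes Il1b, which was also chosen above by its likeness to Calca. In each genotype 7 of the 9 were higher and 2 lower, with medians of 0.50 in WT and 0.51 in Pxr-/-. An unadjusted limma p under 0.05 was reached by 4 in each, against 4.66% of all probes in WT and 7.35% in Pxr-/-. None was called (lowest limma adjusted p = 0.206 in Pxr-/-). Without the 4 near-identical arrays 2 were called in each genotype, against 0.0491% of all probes in WT and 0.0517% in Pxr-/-. The medians of the 9 genes were then 1.12 in WT and 0.68 in Pxr-/-. Their mean log2 signal was 9.99 to 10.40 in WT CONT, 9.87 to 11.93 in WT PCN, 9.52 to 9.87 in Pxr-/- CONT and 10.73 to 11.14 in Pxr-/- PCN. The array labelled WT PCN 3, lowest of its group for Calca, was also lowest for these genes. Between the mean of these genes and Calca, r was 0.77 among the 8 PCN arrays and -0.34 among the 9 CONT arrays. Whether cells of this kind have a part in the Calca signal was not tested.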

How the data were processed

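Total colon RNA was labelled with Cy3 and hybridized by the authors to 17 1-colour Agilent arrays, on 8 slides and in 2 wash baths. The deposited scanner files (Agilent Feature Extraction 10.10.1.1, per the labels) give the intensity of each spot before normalization between arrays, with flags for outlier spots and for spots well above background. Log2 values of 36695 probes, likewise deposited, served to choose 1 probe per gene, the one with the highest mean, and as an alternative. They had the same median in every column and correlated at 0.9996 or more with the scanner values of the same array. Their normalization (CrossNorm) is not described closely enough to be repeated, and quantile normalization stands in for it.

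Outlier spots were left out, log2 of the median intensity was quantile-normalized, and spots of a probe were averaged. Probes well above background on at least 4 arrays were tested (38703 of 56605). The 4 groups and the wash bath were fitted to all arrays with limma 3.58.1 (lmFit, eBayes) in R 4.3.3 (the methods correct the values for the bath before lmFit instead), with Benjamini-Hochberg adjustment over all probes tested, and the fit was tested on simulated data. Between 62.7% and 71.0% of spots stood well above background, the median background was 20 to 28 units, and no spot was saturated. The number of arrays limits the precision. RefSeq names (GRCm38.p6) were used for accessions it lists. The genes named are the 10 genes, the 10 most like Calca, and from each list the genes called and those with the extreme differences averaged over genotypes; Calcrl, Nmu and Vip were named after their values were seen. The 10 genes and the lists were chosen with earlier results of these data known. Between the deviations of same-numbered arrays, r was -0.33 to 0.49 over 22 pairs, above 0.1 in 11. These values are not set against those of differently numbered arrays, so they cannot decide whether the replicate numbers pair arrays. The main fit does not pair them. Alternatives were the deposited log2 values, the scanner's processed signal minus the 75th percentile, normexp with an offset of 50, other filters, no bath term, the slide or the replicate number as a block, only the groups compared, other moderation or threshold, other probes, and arrays left out.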

Additional observations from a re-analysis of the deposited data

Results flagged for a closer look

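Of 40 sets of 1 gene in 1 group, 2 held an array far from the rest of its group, about as many as the 1 in 20 that chance gives. Insl5 was 12.59 in WT CONT 4, against 13.63 to 13.83 in the other WT CONT arrays. The mean log2 signal of the distal Hox genes was 8.79 on that array, the lowest of its group, and Cpa1 was highest there. Cck was 8.47 in WT PCN 1, against 10.33 to 10.59 in the other WT PCN arrays, where the Hox genes were at 11.32, the highest of the group. The part of position or of pancreatic RNA in these values was not tested.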

How the results depend on the processing

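The PCN differences of Calca (WT, Pxr-/-, average and interaction) kept their sign in 122 of 122 alternative values of the variant 1 probe, with a range of 1.62 (normexp) to 3.54 (processed signal) in WT. As Calca was chosen by its PCN difference and the alternatives reuse the same arrays, nothing is read from the kept sign. The variant 2 probe gave 0.10, 0.14, 0.12 and 0.035, the last of opposite sign. Of the 9 other genes, 875 of 926 alternative values of the same probes kept the sign, and none was called under any alternative, with any array left out or with a replicate block. The number of probes called depended on the arrays labelled WT PCN 3 and 4. For PCN in WT it was 0 with all arrays, 19 without the 4 near-identical arrays, 39 without WT PCN 3 and 4, and 0 to 18 with any 1 array left out (18 without WT PCN 3). For PCN in Pxr-/- it was 2, and 0 with the processed signal, normexp, no filter, the slide as a block, fixed or random, or the replicate block. It was 1 without the bath term, 20 without the near-identical arrays, 29 without WT PCN 3 and 4, 20 with only the groups compared, and 0 to 26 with 1 array left out (26 without WT PCN 3, 4 without WT PCN 4). For the average it was 2, and 1 with the processed signal, normexp, a filter on every array or the replicate block, 0 with the slide as a fixed block, 75 without the near-identical arrays, 102 without WT PCN 3 and 4, and 0 to 63 with 1 array left out (63 without WT PCN 3, 4 without WT PCN 2). For genotype in CONT it was 0, then 2 without WT PCN 3 and 4, 8 with only the groups compared and 0 to 2 with 1 array left out. For the interaction it was 0, then 1, 3 and 0 to 1 without the near-identical arrays, without WT PCN 3 and 4 and with 1 array left out. The cause was not tested.

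The following values had the sign opposite to the value with all arrays, whose size was at most 0.58 (Calca, genotype). Without the near-identical arrays, and equally without WT PCN 3 and 4 alone, PCN in WT gave 0.24 for Pyy, -0.36 for Cck, 0.046 for Chga and 0.072 for Tac1. With the replicate block, Chga had 0.044 and Tac1 0.079 for PCN in WT, and Tac1 0.029 for genotype. With the slide as a fixed block, Cck had -0.013, Chga 0.056 and Tac1 0.066 for PCN in WT, and for genotype Gcg had -0.14, Cck -0.27 and Tac1 0.055. Without the bath term, Gcg had 0.0080 and Tac1 0.0052 in WT. With the processed signal, Gcg had 0.0057 in WT and Tac1 0.0038 for genotype. With only the groups compared, Tac1 had 0.026 in WT. The other probe of Gcg gave 0.11 in WT, and the probe of Calca variant 2 gave -0.14 for genotype. With 1 array left out, PCN in WT ranged from -0.37 to 0.74 for Cck, -0.14 to 0.069 for Chga, -0.22 to 0.25 for Gcg, -0.52 to 0.12 for Pyy and -0.13 to 0.042 for Tac1. Genotype ranged from -0.086 to 0.10 for Chga, -0.076 to 0.25 for Gcg and -0.16 to 0.037 for Tac1. PCN in Pxr-/- ranged from -0.18 to 0.38 for Chga, -0.93 to 0.80 for Insl5 and -0.13 to 0.47 for Tph1, with the sign turned by Pxr-/- PCN 4 alone. Calca variant 1 lay near the background in WT CONT, which limits how well its fold change is known.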

Other observations

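Markers of other cells that a piece of colon can hold were read on the same arrays. Of 8 pancreatic islet genes, Ins1 and Ins2 were at 9.55 and 9.49 in WT CONT 4 and at most 6.82 elsewhere, so that the array with the highest Cpa1 also held islet RNA. Islets also express Gcg and Sst, and the part of islet RNA in the values of these genes was not tested. Ppy, the gene of pancreatic polypeptide and a relative of Pyy, lay between 9.07 and 11.08. Of 6 adipocyte genes, 5 were lower under PCN in both genotypes, with medians of -1.43 in WT and -0.79 in Pxr-/-, none called. Without the 4 near-identical arrays the medians were -0.81 and -1.02. In CONT mice, without PCN, 5 of the 6 were also lower in Pxr-/- than in WT, with a median of -1.40 (-1.18 without those arrays). Epithelial genes differed less. The median PCN difference of 8 colonocyte genes was 0.05 in WT and -0.14 in Pxr-/-, and that of 6 goblet cell genes 0.06 and -0.11, again with none called.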
